A study of Mus musculus with 24 samples.

Results

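Sodium and calcium pumps of the ventral hippocampus were followed through 7 genes, chosen by name from a single-nucleus RNA sequencing (snRNA-seq) table: Atp1b1, Atp1b2, Atp2a2, Atp2b1, Atp2b2, Atp2b3 and Atp2b4. All 7 were among its 33902 gene symbols and had counts in each of its 68 columns. Nuclei came from untreated adult male mice, 10 to 16 weeks old, of 2 inbred strains, C57BL/6J (B6) and DBA/2J (D2). Each strain had 2 libraries, a replicate being made from about 2 animals, and nuclei were sorted on NeuN, a protein of neuronal nuclei, so the proportion of neurons was set by the sort. A column sums the raw counts of 1 cell type in 1 library. The table numbers the libraries 2 and 3, so a column was placed in its strain but not tied to a particular sample.

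The sodium pump exchanges sodium for potassium across the plasma membrane and restores the gradients that neuronal firing runs down. It is built of a catalytic alpha subunit and a beta subunit that brings the complex to the cell surface. Atp1b1 encodes the beta-1 subunit and Atp1b2 the beta-2 subunit, also known as an adhesion molecule of glia. Calcium pumps lower cytoplasmic calcium after a signal. Atp2a2 encodes SERCA2, which returns calcium to the endoplasmic reticulum. Atp2b1, Atp2b2, Atp2b3 and Atp2b4 encode the plasma membrane calcium pumps PMCA1, PMCA2, PMCA3 and PMCA4, which push calcium out of the cell and are activated by calmodulin.

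There were 17 cell types. The 8 excitatory types carry the prefix Exc, among them dentate gyrus granule neurons (Exc-DG), 3 CA1 types and Exc-CA3, and the 3 inhibitory types carry the prefix Inh. The 5 non-neuronal types (NN) are astrocytes (Astro), oligodendrocytes (ODC), their precursors (OPC), microglia (MGC) and vascular and leptomeningeal cells (VLMC), and CR-CR expresses Cajal-Retzius markers. The 4 libraries held 43048686 to 56452272 counts and the columns 139713 to 11352265, from 30880 nuclei, with fewest nuclei in CR-CR of D2 (45 and 46). Of 16 marker lists, 13 were highest in a cell type that the list fits. The CA3 list was highest in Inh-MGE (633 summed CPM, counts scaled to the same total in every column, against 337 in Exc-CA3) and the Lamp5 list in CR-CR (662 CPM against 411 in Inh-Lamp5). The ependymal list of 2 genes was highest in NN-VLMC, where D2 library 2 had 154 CPM and the other libraries 7.29 to 42.3 CPM. Levels below are CPM on TMM-normalized library sizes, as mean ± SD over the 4 libraries of both strains (n = 4). Introns were counted and genes differ in length, so levels were compared between cell types within a gene and never between genes. Fewer nuclei of a subtype and less RNA per nucleus cannot be told apart in such sums.

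**Figure D1:**
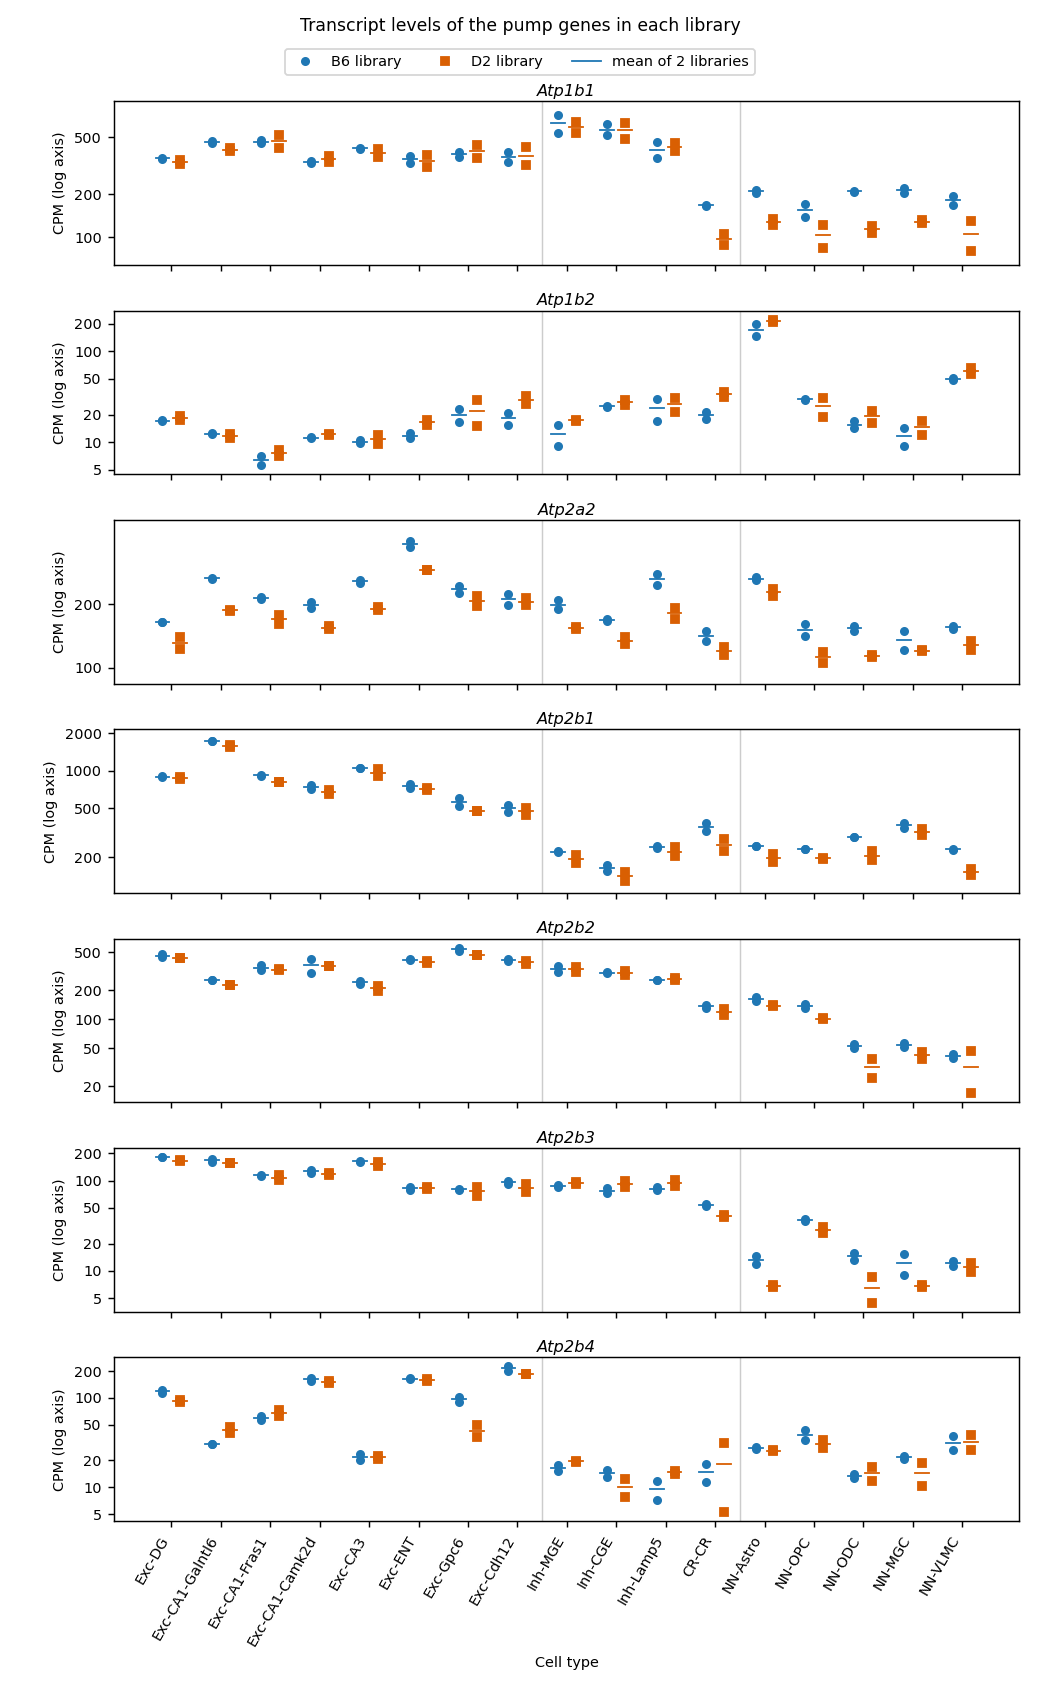
Each panel plots 1 gene, with cell types on the x axis and CPM on a log y axis. Circles are B6 libraries, squares are D2 libraries and short lines are the means of 2 libraries. Atp1b1 in NN-Astro was 203 and 215 CPM in B6 and 133 and 122 CPM in D2.

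Atp1b1 (chr1:164437109-164458355, minus strand, GRCm38, GENCODE vM21) was higher in neurons than in non-neuronal cells. It was highest in Inh-MGE (606 ± 84.7 CPM) and lowest in NN-OPC (129 ± 35.9 CPM). Means of the 11 neuronal types lay between 343 and 606 CPM and those of the 5 non-neuronal types between 129 and 170.5 CPM. Of 16 pairs of neighbours in the order of levels, 15 overlapped in range over the 4 libraries, and the exception was the step from Exc-CA1-Camk2d, the lowest neuronal type, to NN-MGC. The mean of the neuronal types was 2.59-fold that of the non-neuronal types in a fit of all columns with the library as a block (log2 fold change 1.38, SE 0.0646, adjusted p = 1.95e-29, edgeR's quasi-likelihood test over all transcripts). A difference between cell types was called at an adjusted p under 0.05 with an absolute log2 fold change over 1, and 5 of 7 members were called here, where 35.4% of all transcripts were.

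The bases before the start of Atp1b1 are shown because the peak at this start had counts in every library and cell type of the chromatin table described below. They are the 250 bases before the RefSeq start (GRCm38.p6, minus strand, chr1:164458356-164458605), 5' to 3', with GGGCGG, read on both strands, in capitals.

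Atp1b1: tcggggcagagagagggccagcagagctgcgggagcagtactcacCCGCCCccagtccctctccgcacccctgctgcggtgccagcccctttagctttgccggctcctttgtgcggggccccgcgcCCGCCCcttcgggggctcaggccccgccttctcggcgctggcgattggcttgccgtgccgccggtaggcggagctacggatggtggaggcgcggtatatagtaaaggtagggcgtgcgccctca

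The window from 250 bases before to 50 after this start held 31 CG dinucleotides, against a median of 7 over all RefSeq promoters. GGGCGG was present in 35.7% of 32851 promoters of this length.

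Atp1b2 (chr11:69599736-69605942, minus strand, GRCm38) was highest in astrocytes. In NN-Astro it was 198 and 147 CPM in B6 and 223 and 209 CPM in D2, a mean of 194 ± 33.1 CPM. NN-VLMC followed with 55.3 ± 7.85 CPM, and every other type had a mean of 27.2 CPM or less, down to 6.93 ± 1.06 CPM in Exc-CA1-Fras1. All 4 astrocyte libraries lay above those of NN-VLMC, and these above those of NN-OPC. Astrocytes exceeded the mean of the other non-neuronal types 7.66-fold (log2 fold change 2.94, SE 0.0838, adjusted p = 5.76e-41, edgeR), and neuronal types were lower than non-neuronal types (log2 fold change -1.33, SE 0.0894, adjusted p = 1.65e-21, edgeR).

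Atp2a2 (chr5:122453513-122502225, minus strand) had the smallest range of means among the 7 members, 2.65-fold. It was highest in Exc-ENT (338 ± 57.3 CPM), whose libraries lay above those of the next type, NN-Astro (245 ± 22.4 CPM), and lowest in NN-MGC (128 ± 14.4 CPM). The other 15 pairs of neighbours overlapped. Neuronal types were 0.35 above non-neuronal types on the log2 scale (SE 0.0364) and astrocytes 0.84 above the other non-neuronal types (SE 0.0659), both short of the fold limit.

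Atp2b1 (chr10:98914406-99026143, plus strand) was high in excitatory neurons. It reached 1655 ± 81.6 CPM in Exc-CA1-Galntl6, 1012 ± 74.9 CPM in Exc-CA3 and 883 ± 21.1 CPM in Exc-DG, and 484 ± 37.9 CPM in the lowest excitatory type, Exc-Cdh12. The inhibitory types had means of 153 to 233 CPM, within or below those of the non-neuronal types (193 to 343 CPM). Excitatory types exceeded inhibitory types 4.03-fold (log2 fold change 2.01, SE 0.0485, adjusted p = 3.99e-45, edgeR), and neuronal types exceeded non-neuronal types 2.17-fold (log2 fold change 1.12, SE 0.0377, adjusted p = 2.29e-37, edgeR). Between excitatory and inhibitory types 2 of 7 members were called, beside 17.3% of all transcripts.

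Atp2b4 (chr1:133699457-133801041, minus strand) was the other member called there, 5.80-fold higher in excitatory types (log2 fold change 2.54, SE 0.11, adjusted p = 8.55e-31, edgeR). Excitatory types differed widely among themselves, from 199.9 ± 19.9 CPM in Exc-Cdh12 and 162 ± 4.23 CPM in Exc-ENT to 21.7 ± 1.58 CPM in Exc-CA3. The CA1 types separated without overlap, at 157 ± 8.82 CPM in Exc-CA1-Camk2d, 63.96 ± 7.00 CPM in Exc-CA1-Fras1 and 37.2 ± 8.20 CPM in Exc-CA1-Galntl6. The mean of the CA1 types was 3.31-fold that of Exc-CA3 (log2 fold change 1.73, SE 0.124, adjusted p = 3.82e-19, edgeR), the 1 member of 7 called in that comparison, where 10.6% of transcripts were called.

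Atp2b3 (chrX:73503086-73571005, plus strand) had the largest difference between neuronal and non-neuronal types of the 7 members, 7.65-fold (log2 fold change 2.94, SE 0.0684, adjusted p = 1.50e-46, edgeR). Exc-DG (174 ± 9.54 CPM), Exc-CA1-Galntl6 (163 ± 8.63 CPM) and Exc-CA3 (159 ± 9.17 CPM) overlapped at the top. The lowest neuronal mean was 78.2 CPM in Exc-Gpc6. CR-CR (47.5 ± 7.83 CPM) and NN-OPC (32.6 ± 4.99 CPM) came next, above the other 4 non-neuronal types (9.52 to 11.6 CPM).

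Atp2b2 (chr6:113743831-114042613, minus strand) was 4.73-fold higher in neuronal types (log2 fold change 2.24, SE 0.0506, adjusted p = 2.84e-47, edgeR). Excitatory and inhibitory types differed by 0.22 on the log2 scale (SE 0.0485), short of the fold limit. Inh-MGE had 332 ± 24.4 CPM, between 498 ± 41.3 CPM in the highest type, Exc-Gpc6, and 226 ± 22.6 CPM in the lowest excitatory type, Exc-CA3. Among non-neuronal cells NN-Astro (149 ± 15.1 CPM) and NN-OPC (119 ± 21.6 CPM) overlapped and lay above the other 3 types (36.7 to 48.1 CPM). Astrocytes exceeded the mean of the other non-neuronal types 2.61-fold (log2 fold change 1.38, SE 0.0876, adjusted p = 2.94e-22, edgeR), so that 2 of 7 members were called there beside 23.5% of transcripts.

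Oligodendrocytes had less of 3 plasma membrane pumps than their precursors. Atp2b2 (log2 fold change -1.42, SE 0.125, adjusted p = 8.33e-16, edgeR), Atp2b3 (log2 fold change -1.49, SE 0.194, adjusted p = 1.07e-09, edgeR) and Atp2b4 (log2 fold change -1.30, SE 0.261, adjusted p = 2.24e-05, edgeR) were called, beside 29.0% of all transcripts. No member was called between Exc-DG and the CA types, where 16.6% of transcripts were called and all 7 members had an edgeR adjusted p under 0.05 with a smaller fold. None was called between Inh-MGE and Inh-CGE (8.33% of transcripts), where 2 had such a p.

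The makeup of the PMCA transcripts varied between cell types. Atp2b1 held 78.97% ± 0.442 of the summed counts of the 4 Atp2b genes in Exc-CA1-Galntl6 and 27.7% ± 3.08 in Inh-CGE. Atp2b2 held 11.5% ± 0.234 and 54.8% ± 1.81 in the same types. Atp2b4 held 16.99% ± 1.45 in Exc-Cdh12 and 1.54% ± 0.192 in Exc-CA3. Gene length enters these shares, so they are compared within a gene. A share also moves when another gene moves. The level of Atp2b2 itself was 241 ± 15.5 CPM in Exc-CA1-Galntl6, 302 ± 12.2 CPM in Inh-CGE and 48.1 ± 8.06 CPM in NN-MGC.

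**Figure D2:**
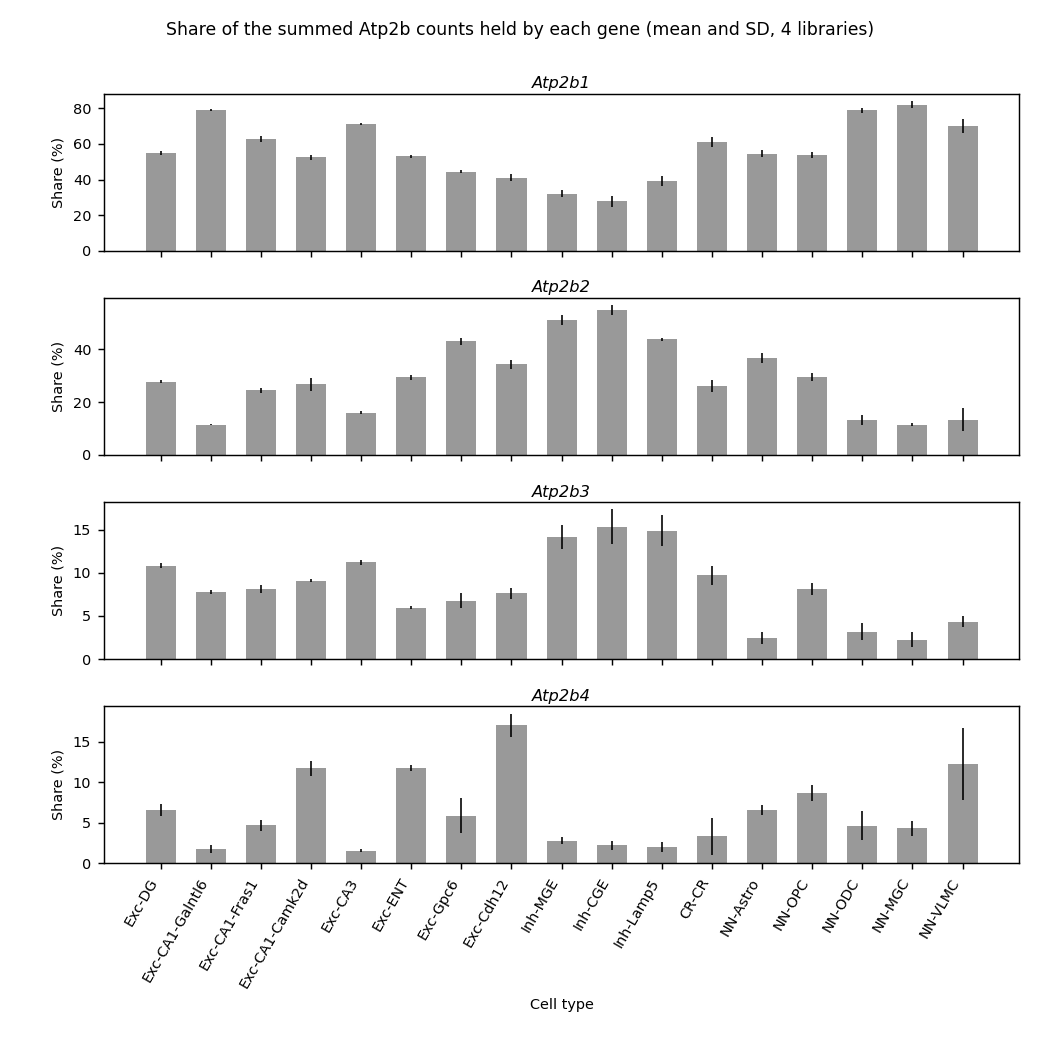
Each panel plots the share of 1 gene in the summed counts of the 4 Atp2b genes (percent, y axis) by cell type (x axis). Bars are means and lines are SDs over 4 libraries, and Atp2b2 had 11.5% in Exc-CA1-Galntl6, 11.4% in NN-MGC and 54.8% in Inh-CGE. A share also depends on the other genes.

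The 3 genes most like each member were found by the Pearson correlation of mean log2 CPM over the 17 cell types, among 13204 genes. These are descriptions over points that share 4 libraries. For Atp1b1 they included Nme7 (0.97), Gm27032 (0.97). For Atp1b2 they were Aldh1l1 (0.94), Gm6145 (0.91), Tmem47 (0.90), of which Aldh1l1 is an astrocyte marker. For Atp2a2 they included Sema4a (0.82), Chka (0.80). They were Mmd (0.97), Icam5 (0.96), Traip (0.96) for Atp2b1 and Extl1 (0.88), Nek10 (0.86), 9830166K06Rik (0.84) for Atp2b4. They were Gm15083 (0.98), Ccdc39 (0.96), Kcnj3 (0.95) for Atp2b2 and Svop (0.98), Dnm1 (0.98), Sptbn4 (0.98) for Atp2b3. By Spearman correlation 0 of the 3 were again among the top 3 for Atp1b2, Atp2b2 and Atp2b3. Nme7 overlaps Atp1b1 and Gm15083 overlaps Atp2b2, each on the opposite strand. Gm43359 and Gm43360 at Atp2a2, Gm44167 at Atp2b2 and Mir6903 and Gm37368 at Atp2b4 overlap on the same strand. In these same-strand pairs reads may not be separate. The part of reads shared in any of the overlapping pairs was not tested.

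The strains were compared within each cell type (D2 over B6, edgeR's quasi-likelihood test, called at an adjusted p under 0.05). Of 116 tests of a member in a cell type, 21 were called lower in D2 (18.1%) and 2 higher (1.72%), against 9.25% lower and 12.9% higher among all tests of all transcripts. Atp2a2 gave 9 of the calls lower in D2 and Atp1b1 gave 5. Tests of a gene in different cell types share the same 4 libraries, so they are not independent. The members were chosen with earlier results of these data known, so these shares do not test them as a set. Atp2b3 in NN-MGC and NN-VLMC and Atp2b4 in CR-CR were too low to test. In excitatory types the share of all transcripts called was 36.0% in Exc-DG, 35.0% in Exc-CA1-Galntl6, 32.1% in Exc-CA3, 28.5% in Exc-CA1-Fras1, 28.0% in Exc-ENT, 19.7% in Exc-Gpc6, 19.4% in Exc-CA1-Camk2d and 8.44% in Exc-Cdh12. It was 21.0% in Inh-MGE, 15.1% in Inh-CGE, 12.1% in Inh-Lamp5 and 4.26% in CR-CR. In non-neuronal types it was 26.2% in NN-Astro, 19.0% in NN-ODC, 16.2% in NN-OPC, 10.4% in NN-MGC and 7.87% in NN-VLMC. With 2 libraries a strain, these tests set the strain difference against the spread between libraries, which are pools of about 2 animals. The spread between single animals was not measured.

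**Figure D3:**
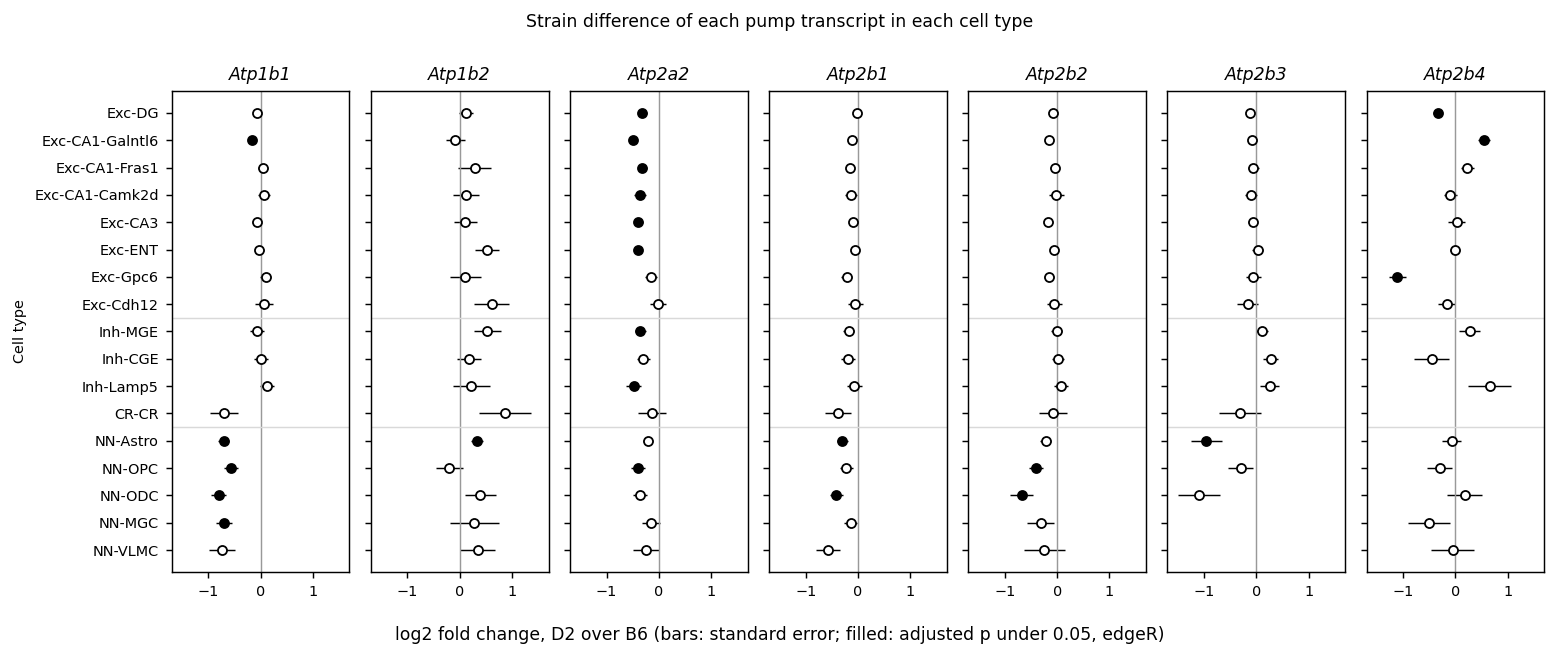
Each panel plots the log2 fold change of D2 over B6 (x axis) of 1 gene in each cell type (y axis), with its standard error. Filled points had an adjusted p under 0.05 (edgeR), among them Atp2a2 in 9 of 17 types and Atp1b1 in 4 of 5 non-neuronal types.

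Atp2a2 was lower in D2 in 8 of 11 neuronal types and in NN-OPC. Both D2 libraries lay below both B6 libraries in 16 of 17 types, all but Exc-Cdh12, and 9 types were called. The types come from the same libraries, so their agreement does not repeat the strain comparison independently. In Exc-CA1-Galntl6 it was 263 and 267 CPM in B6 and 188 and 186 CPM in D2 (log2 fold change -0.49, SE 0.0664, adjusted p = 1.72e-05, edgeR). In Exc-ENT it was 399.7 and 374 CPM in B6 and 289 and 289.7 CPM in D2 (log2 fold change -0.40, SE 0.0828, adjusted p = 2.13e-04, edgeR). In Exc-CA3 it was 252 and 261 CPM in B6 and 187 and 193 CPM in D2 (log2 fold change -0.39, SE 0.0834, adjusted p = 0.00127, edgeR). These 3 calls held under all 9 alternatives. The other 6, in Exc-DG, Exc-CA1-Fras1, Exc-CA1-Camk2d, Inh-MGE, Inh-Lamp5 and NN-OPC (log2 fold changes -0.48 to -0.31), were each lost under at least 1. In the 8 types not called, log2 fold changes ran from -0.36 to -0.02. The strain by cell type terms of Atp2a2 did not pass (F = 1.56 on 16 degrees of freedom, adjusted p = 0.313, edgeR). Markers of glia moved with these calls. The summed microglia markers were lower in D2 without overlap in all 9 called types and the oligodendrocyte markers in 7, all but Inh-Lamp5 and NN-OPC. In Exc-CA1-Galntl6 the oligodendrocyte list had 163 and 166 CPM in B6 and 108 and 93.8 CPM in D2 and the microglia list 292 and 259.6 CPM in B6 and 215 and 181 CPM in D2. Both lists were also lower without overlap in the 3 neuronal types where Atp2a2 was not called. Their part in the difference of Atp2a2 was not tested. Pln, which encodes phospholamban, an inhibitor of SERCA2, was lower in D2 in 3 types, Exc-CA1-Galntl6 (log2 fold change -0.81, SE 0.161), Exc-CA3 (-0.77, SE 0.193) and Exc-DG (-0.44, SE 0.161).

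Atp1b1 was lower in D2 in non-neuronal cells. In NN-Astro it was 203 and 215 CPM in B6 and 133 and 122 CPM in D2 (log2 fold change -0.70, SE 0.106, adjusted p = 1.07e-06, edgeR). In NN-ODC it was 207 and 212 CPM in B6 and 121 and 107 CPM in D2 (log2 fold change -0.80, SE 0.137, adjusted p = 7.60e-05, edgeR). Both calls held under every alternative. In NN-MGC it was 220.01 and 205 CPM in B6 and 131 and 125 CPM in D2 (log2 fold change -0.69, SE 0.155, adjusted p = 0.00686, edgeR), and in NN-OPC 139 and 170.2 CPM in B6 and 122 and 84.1 CPM in D2 (log2 fold change -0.56, SE 0.140, adjusted p = 9.89e-04, edgeR). These calls were lost with DESeq2 and without D2 library 3, and that in NN-OPC also without B6 library 3. NN-VLMC (log2 fold change -0.73, SE 0.253, adjusted p = 0.0677, edgeR) and CR-CR (log2 fold change -0.69, SE 0.268, adjusted p = 0.183, edgeR) did not pass, although their D2 libraries lay below their B6 libraries. In the 11 neuronal types log2 fold changes ran from -0.17 to 0.12, and 1 was called, in Exc-CA1-Galntl6 (log2 fold change -0.17, SE 0.0614, adjusted p = 0.0397, edgeR), which was lost under 4 alternatives.

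The strain difference of Atp1b1 was 0.69 higher on the log2 scale in neuronal than in non-neuronal types (SE 0.0837, adjusted p = 2.37e-09, edgeR). Such a difference was called for 3 of 7 members and 6.72% of all transcripts. That fit took the columns of a library as separate observations, so its p-values reflect the number of columns more than that of libraries. Nme7 overlaps the last exon of Atp1b1 by 617 bp (chr1:164437109-164437725, GRCm38) on the opposite strand and moved in the same types, with log2 fold changes of -0.85 in NN-Astro, -0.80 in NN-MGC, -0.77 in NN-ODC and -0.54 in NN-OPC, all called. It was not called in NN-VLMC (-0.30), and of the other 12 types it was called in Exc-CA1-Galntl6 and Exc-ENT. The part of reads shared between the 2 genes was not tested. The summed level of 19 neuronal markers in NN-Astro was 231 and 237 CPM in B6 and 212 and 192 CPM in D2, a ratio of D2 to B6 of 0.863. In NN-ODC the strains overlapped (369 and 416 CPM in B6, 406 and 353 CPM in D2, ratio 0.967). The ratio was 0.752 in NN-MGC, 0.937 in NN-OPC and 0.884 in NN-VLMC, and 1 of the 19, Iyd, was at 0 in NN-MGC. Taken gene by gene, the log2 fold change was below 0 for 11 of 16 in NN-Astro (median -0.28, 1 called lower and 0 higher), 9 of 12 in NN-ODC (median -0.53, 2 called lower and 0 higher), 3 of 4 in NN-MGC (median -0.44, 0 called lower and 0 higher) and 6 of 10 in NN-OPC (median -0.03, 1 called lower and 1 higher), of the markers that could be tested. In NN-ODC the dentate gyrus list, part of the sum, had 183 and 208 CPM in B6 and 220.1 and 221 CPM in D2. Markers of other glia moved too. The 5 oligodendrocyte markers in NN-Astro summed to 376 and 342 CPM in B6 and 172 and 148 CPM in D2, and the 5 microglia markers to 253 and 234 CPM in B6 and 155 and 149.8 CPM in D2. The microglia list lay lower in D2 without overlap in all 4 non-neuronal types other than NN-MGC, and in NN-ODC it had 177 and 169 CPM in B6 and 84.8 and 97.5 CPM in D2. The oligodendrocyte list did so in NN-Astro, NN-MGC and NN-VLMC, while in NN-OPC it had 340.4 and 303 CPM in B6 and 516 and 352 CPM in D2. The part of these markers in the difference of Atp1b1 was not tested.

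The plasma membrane pumps gave 5 calls in glia, all lower in D2. Atp2b1 had a log2 fold change below 0 in all 17 types (-0.57 to -0.02), of which 2 were called. Atp2b1 was called in NN-Astro (log2 fold change -0.30, SE 0.102) and NN-ODC (-0.41, SE 0.128), Atp2b2 in NN-ODC (-0.68, SE 0.218) and NN-OPC (-0.41, SE 0.140), and Atp2b3 in NN-Astro (-0.96, SE 0.294). Atp2b3 in NN-Astro was 11.9 and 14.8 CPM in B6 and 7.02 and 6.61 CPM in D2. All 5 were lost with DESeq2 and without D2 library 3, and the neuronal and glial markers above stand beside them too. In neuronal types none of these 3 genes was called, with log2 fold changes from -0.22 to 0.27. The strain difference in neuronal minus non-neuronal types was 0.65 for Atp2b3 (SE 0.169, adjusted p = 0.0197, edgeR). Its non-neuronal mean includes 2 types too low to test alone, NN-MGC (6 and 15 counts in B6, 4 and 5 in D2) and NN-VLMC (4 and 7 in B6, 9 and 4 in D2). The same contrast was 0.21 for Atp2b1 (SE 0.0636, adjusted p = 0.0297, edgeR, against 0.0686 with RLE size factors) and 0.30 for Atp2b2, which was not called (SE 0.103, adjusted p = 0.0609, edgeR). Atp1b2 in NN-Astro was the call higher in D2 in glia (log2 fold change 0.33, SE 0.113, adjusted p = 0.0248, edgeR), without overlap of the strains, and was lost under 5 of 9 alternatives.

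Atp2b4 differed between the strains in opposite directions in different excitatory neurons. In Exc-Gpc6 it was 91.3 and 104 CPM in B6 and 49.5 and 36.4 CPM in D2, 0.463 of the B6 level in D2 (log2 fold change -1.11, SE 0.155, adjusted p = 5.07e-07, edgeR). In Exc-DG it was 113 and 124 CPM in B6 and 93.9 and 91.2 CPM in D2 (log2 fold change -0.34, SE 0.0798, adjusted p = 0.00370, edgeR). In Exc-CA1-Galntl6 it was 30.5 and 30.3 CPM in B6 and 46.95 and 40.9 CPM in D2, 1.46-fold higher in D2 (log2 fold change 0.55, SE 0.12, adjusted p = 0.00178, edgeR). All 3 calls held under every alternative. In the other types log2 fold changes ran from -0.50 to 0.65 and none was called. The strain by cell type terms passed for Atp2b4 (F = 6.07, adjusted p = 1.24e-06), Atp1b1 (F = 5.50, adjusted p = 5.69e-06) and Atp2b3 (F = 2.94, adjusted p = 0.00887) by edgeR, 3 of 7 members beside 15.9% of all transcripts. For the other 4 members F lay between 1.07 and 1.56. Columns of a library entered this test too as separate observations.

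Open chromatin was measured by single-nucleus ATAC sequencing (snATAC-seq) in 15 of these cell types, with 2 libraries a strain and no sort on NeuN. In Exc-DG, the deepest type, 129 peaks with at least 10 counts overlapped the members or the 2 kb beyond their ends, 54 of them at Atp2b2 and 30 at Atp2b1. Of these, 1 was called between the strains at an adjusted p under 0.05, where 5.97% of all peaks were. It lay in an intron of Atp2a2 (chr5:122494752-122495138, mm10), with 0.745 and 0.792 CPM in B6 and 1.33 and 1.62 CPM in D2 from 104 counts (log2 fold change 1.00, SE 0.317, adjusted p = 0.0323, edgeR), and was lost with DESeq2 and without 3 of the 4 libraries in turn. None of the 13 peaks at transcription starts was called. The peak over the start of Atp2a2 (chr5:122501100-122503942) had 55.4 and 55.3 CPM in B6 and 57.9 and 54.2 CPM in D2, with overlapping strains (log2 fold change 0.06, SE 0.0610). The start peak of Atp2b4 (chr1:133799251-133801361) had 16.5 and 16.3 CPM in B6 and 18.99 and 17.98 CPM in D2 (log2 fold change 0.21, SE 0.0886, adjusted p = 0.161, edgeR).

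Accessibility within 1 kb of the starts across cell types is a description, in CPM of each column's total. Its non-neuronal columns held 14 to 65 nuclei, the others 85 or more. At Atp1b2 it was highest in NN-Astro (66.4 ± 19.1 CPM) and lowest in Exc-CA1-Fras1 (10.6 ± 2.07 CPM), the same types as for its transcript. At Atp2b4 it was highest in Exc-Cdh12 (34.4 ± 7.86 CPM) and lowest in Inh-Lamp5 (14.2 ± 2.22 CPM), also as for the transcript. Atp2b1 was most accessible in NN-ODC (155 ± 23.9 CPM) and least in Exc-CA3 (58.9 ± 1.60 CPM), where its transcript was second highest. Over the 15 types, Pearson correlations of accessibility with transcript level were 0.84 for Atp1b1, 0.89 for Atp1b2, -0.09 for Atp2a2, -0.77 for Atp2b1, 0.82 for Atp2b2, 0.71 for Atp2b3 and 0.81 for Atp2b4. Over the 11 neuronal types alone they were 0.40 for Atp1b1, 0.89 for Atp1b2, 0.12 for Atp2a2, -0.84 for Atp2b1, 0.75 for Atp2b2, -0.63 for Atp2b3 and 0.93 for Atp2b4, so that the value of Atp2b3 changed sign.

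Atp2b2 has 3 annotated coding starts, which differed in the cell types where they were open. The 250 bases before each RefSeq start (GRCm38.p6, minus strand, 5' to 3') are shown because the middle start followed another pattern than the others. Capitals mark GGGCGG, read on both strands.

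Atp2b2 farthest upstream start, chr6:114042081-114042330: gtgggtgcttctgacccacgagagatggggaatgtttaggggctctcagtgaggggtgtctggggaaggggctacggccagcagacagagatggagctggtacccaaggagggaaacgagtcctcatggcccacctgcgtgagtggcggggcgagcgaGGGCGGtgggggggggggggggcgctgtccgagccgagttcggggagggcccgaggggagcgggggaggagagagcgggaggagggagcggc

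Atp2b2 middle start, chr6:113934682-113934931: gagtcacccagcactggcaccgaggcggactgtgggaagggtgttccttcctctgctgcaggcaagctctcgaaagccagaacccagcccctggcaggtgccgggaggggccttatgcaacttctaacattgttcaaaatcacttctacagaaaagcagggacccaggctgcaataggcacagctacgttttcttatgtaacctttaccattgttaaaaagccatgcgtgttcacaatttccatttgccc

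Atp2b2 innermost start, chr6:113891540-113891789: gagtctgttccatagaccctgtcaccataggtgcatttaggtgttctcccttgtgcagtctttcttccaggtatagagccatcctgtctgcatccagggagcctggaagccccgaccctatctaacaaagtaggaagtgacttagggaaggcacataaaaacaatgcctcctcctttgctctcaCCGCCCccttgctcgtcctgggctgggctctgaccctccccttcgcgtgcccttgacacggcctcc

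The windows of 300 bases at these starts held 27, 8 and 12 CG dinucleotides. The middle start was most open in excitatory types. It had 38.95 and 25.1 CPM in B6 and 26.6 and 32.8 CPM in D2 in Exc-Gpc6, 15.7 and 14.5 CPM in B6 and 16.7 and 17.8 CPM in D2 in Exc-DG and 4.96 and 7.17 CPM in B6 and 6.72 and 7.93 CPM in D2 in Inh-MGE, whose libraries all lay below those of Exc-DG. Exc-CA3 (8.68 ± 0.30 CPM) and Exc-CA1-Galntl6 (8.98 ± 1.13 CPM) were the excitatory types nearest to the inhibitory ones (6.39 to 7.01 CPM). At the farthest upstream start Inh-MGE (22.7 ± 0.621 CPM) lay above Exc-DG (18.04 ± 0.535 CPM) in every library. There Exc-DG was again above Exc-CA1-Galntl6 (11.99 ± 0.782 CPM). The innermost start went from 17.9 ± 7.33 CPM in NN-MGC to 46.2 ± 10.9 CPM in Inh-Lamp5, and Exc-DG and Inh-CGE overlapped there (35.6 ± 1.81 CPM and 41.3 ± 5.78 CPM).

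**Figure D4:**
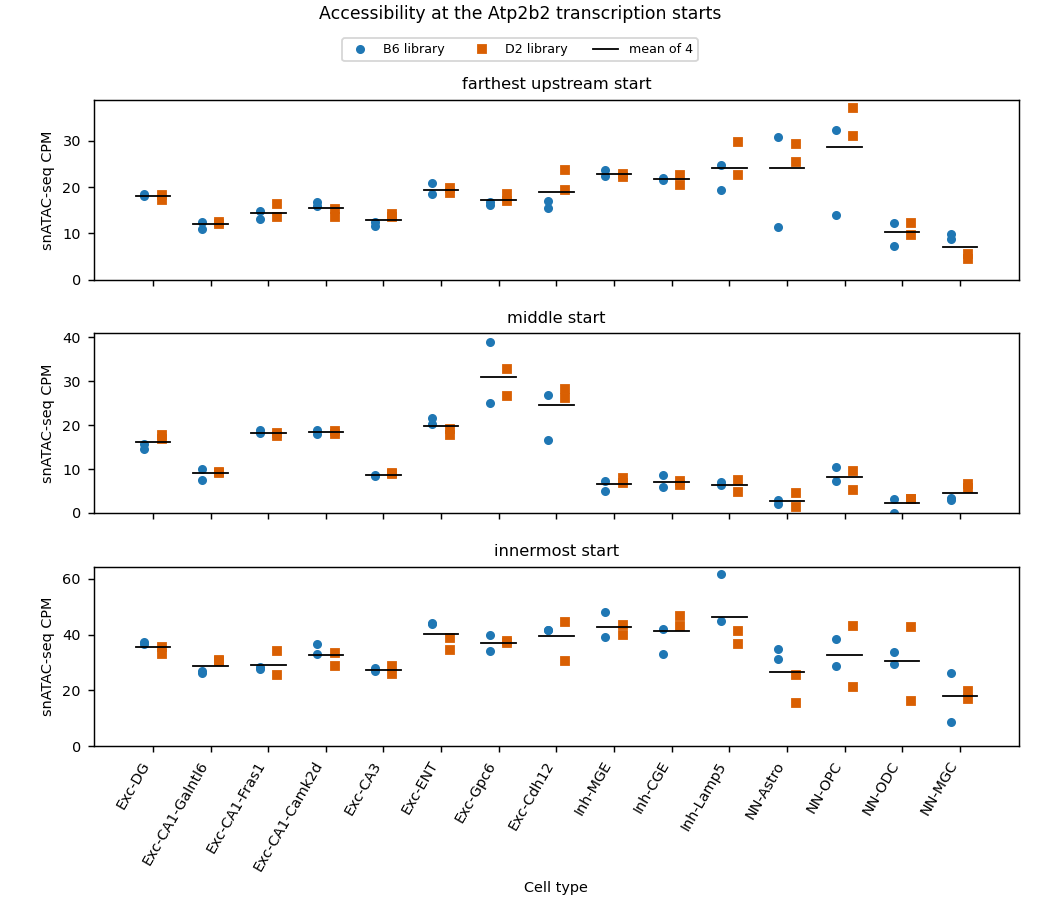
Each panel plots snATAC-seq CPM within 1 kb (y axis, from 0) of 1 start of Atp2b2 by cell type (x axis). Circles are B6 libraries, squares are D2 libraries and lines are means of 4, and the middle start had 30.9 CPM in Exc-Gpc6 against 6.70 CPM in Inh-MGE.

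Other genes of sodium and calcium transport were read from a list of 50. In neuronal against non-neuronal types 18 of 44 tested were called higher and 7 lower, beside 35.4% of all transcripts called in either direction. Nptn, which encodes the PMCA partner neuroplastin, was higher in neurons (log2 fold change 1.37, SE 0.0426). Excitatory types exceeded inhibitory types in 15 of 44 genes, beside 17.3% of all transcripts called in either direction. None was called lower, but Slc8a3 (-0.87, SE 0.0707), Slc24a3 (-0.83, SE 0.0953), Fxyd6 (-0.79, SE 0.0937) and Atp1b3 (-0.77, SE 0.0603), named after their values were seen as the lowest by log2 fold change, had an edgeR adjusted p under 0.05 short of the fold limit.

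Between the strains, 70 of 607 tests of the list were called higher in D2 and 70 lower, 11.5% each, near the shares of all transcripts. Atp2c1, a calcium and manganese pump of the Golgi, was higher in D2 in 12 types and lower in NN-MGC, with log2 fold changes of 1.28, SE 0.0802, in Exc-CA3 and -0.75, SE 0.147, in NN-MGC. Of the sodium calcium exchangers, Slc24a2 was lower in 10 types, Slc24a3 in 8 and Slc8a1 in 5, Slc24a3 was higher in 1 and Slc24a5 higher in 8. Of the genes of calcium stores, Itpr1 was lower in 9 types and higher in 2, Ryr2 lower in 6 and higher in 1, Ryr3 and Stim1 lower in 4 each, and Itpr2 higher in 2 and lower in 1. Bsg, another PMCA partner, was higher in 8 types, the calmodulin gene Calm2 in 6, Micu2 in 5, and the sodium pump regulators Fxyd4 and Fxyd7 in 4 and 3. Mcu, the pore of the mitochondrial calcium uniporter, was lower in 3.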

How the data were processed

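The single-nucleus RNA and ATAC samples of B6 and D2 ventral hippocampus were used, and the 16 methylation samples of the series were not analysed here. The authors deposited raw counts, summed over the nuclei of each cell type and library. Reads were aligned by Cell Ranger with introns kept, or by Cell Ranger ATAC, and D2 reads to a form of mm10 carrying that strain's SNPs. Differences between these references could move a strain comparison. Doublets were removed, peaks were called with MACS in each sample and merged, and clusters were made in Seurat.

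Counts were tested with edgeR 4.0.16 in R 4.3.3 (TMM, filterByExpr, quasi-likelihood F test, Benjamini-Hochberg adjustment over all features). Strains were fitted per cell type without covariates, and cell types and the strain by cell type terms in 1 fit with the library. Fits of all columns treat the columns of a library as separate observations beside the library term. The columns come from 4 libraries, so these p-values may be too small. Each SE given for edgeR is the absolute log2 fold change over the square root of F. DESeq2 1.42.0 was an alternative. Likeness used log2 CPM with a prior of 0.5 and genes of at least 5 CPM. Gene models were GENCODE vM21, and promoters came from RefSeq, which gave 7 entries for 4 members, with none for Atp1b2, Atp2a2 and Atp2b3. Libraries of a strain differed beyond counting noise (chi-square per degree of freedom 1.46 to 4.95 over 34 pairs). Tests were run on simulated data first. Named were the 7 members, the 3 genes most like each, start peaks with most counts, called peaks with the largest change, and listed genes called in 3 or more types or in a contrast shown, and a few genes that this rule names are not reported here. The members and lists were chosen with earlier results of these data known. Other alternatives were RLE size factors, other count filters, symbols found in both strains, the library number as a block or no block, each strain alone, small columns or each library left out, other gene intervals, plain totals, Spearman correlation and 500 bp around starts.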

Additional observations from a re-analysis of the deposited data

Results flagged for a closer look

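The joint test of the strain by cell type terms (edgeR) found that the strain difference of 3 members differed among cell types. For Atp2b4 F was 6.07, with D2 lower in Exc-Gpc6 and Exc-DG and higher in Exc-CA1-Galntl6. For Atp1b1 F was 5.50 and for Atp2b3 2.94. The columns of a library count as separate observations in this test.

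The strain difference in neuronal minus non-neuronal types, tested as such, was 0.69 on the log2 scale for Atp1b1, 0.65 for Atp2b3 and 0.21 for Atp2b1. That of Atp2b1 did not pass with RLE size factors, and that of Atp2b3 includes non-neuronal types with few counts. Summed neuronal markers were also lower in D2 without overlap in NN-Astro, NN-MGC and, narrowly, NN-OPC. In NN-ODC and NN-VLMC the strains overlapped. Ratios of these sums to B6 ran from 0.752 to 0.967. Median log2 fold changes of single markers were -0.28 in NN-Astro, -0.44 in NN-MGC, -0.53 in NN-ODC and -0.03 in NN-OPC. Microglia and oligodendrocyte markers moved too, as given above, and the part of these markers was not tested.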

How the results depend on the processing

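All 23 strain calls kept their direction under the 9 alternatives, and 8 passed under every one. DESeq2 gave 8 calls lower in D2 in place of 21 and 1 higher in place of 2, and testing every symbol with at least 1 count gave 1 higher. Leaving out each library in turn gave 9 to 19 lower, with 9 without D2 library 3, and 1 to 3 higher. The 13 called differences between cell types were called under all 12 alternatives. With B6 alone, 1 member was called between Exc-DG and the CA types and 1 between Inh-MGE and Inh-CGE, where none was otherwise, and leaving out each library gave 0 to 1 in the first. Among peaks, DESeq2 called 0 higher in D2, and leaving out each library gave 0 to 2 higher and 0 to 1 lower. Spearman correlation shared at least 1 of 3 genes with Pearson for 4 of 7 members, and 0 for Atp1b2, Atp2b2 and Atp2b3. By plain library totals the 7 members kept their highest cell type, while the lowest changed for Atp2a2, Atp2b2, Atp2b3 and Atp2b4. Deviations of same-numbered libraries of the strains correlated from -0.15 to 0.0645 over 17 types. The labels name no batch, and these correlations cannot show whether such libraries share one. With the library number as a block 21 calls were lower and 2 higher, and 1 peak was higher. Few nuclei limit what could be called in CR-CR and NN-VLMC.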
